A study of Mus musculus with 13 samples.

Results

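Chromatin accessibility in sorted mouse microglia was compared between mice that had been depleted of microglia with BLZ945 and then repopulated and mice that had received the vehicle, pooled over 3 states of immune challenge. The comparison was defined by group labels. It used all 7 libraries of the BLZ945 groups PBP, PBL and LBL against all 6 libraries of the vehicle groups PP, PL and LL, which are all 13 libraries of the series, with challenge state as a block term. Of 38620 peaks in the deposited set, the 37820 on autosomes were considered and 36803 passed the filter on low counts. In the ATAC-seq assay an enzyme cuts and tags DNA wherever chromatin is open, so the count in a peak measures how accessible that stretch of DNA was.

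The group names give the order of treatments, where B stands for BLZ945, L for LPS and P for PBS. PBP (2 libraries) and PP (2) received PBS at both injections, PBL (3) and PL (2) received PBS first and LPS last, and LBL (2) and LL (2) received LPS both times. All mice were male C57BL/6J, 10 weeks old at the first intraperitoneal injection and 15 weeks old at collection, which followed the last injection by 3 hours. LPS was given at 1 mg/kg. BLZ945 was given by oral gavage at 169 mg/kg per day for 5 days, starting 1 week after the first injection, and the vehicle groups received its cyclodextrin carrier on the same schedule. The injections lay 5 weeks apart, so that repopulation took place between them. Cells were sorted as live, CD11b high, CD45 intermediate and Ly6c negative. Pools of 2 animals, each giving 40000 cells, are the replicates, and p-values measure the spread between pools. The pools PBL 3_4 and PBL 4_5 both carry the number 4 in their names, and the sources used here do not say whether an animal is common to both.

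Microglia are the resident macrophages of the brain parenchyma and depend on the receptor CSF1R for survival. BLZ945 inhibits the kinase of that receptor. When the inhibitor is withdrawn, the niche fills again, in most models through proliferation of the surviving microglia, so that the cells studied weeks later are largely the offspring of a small pool of survivors. A peak in this assay may be a promoter, an enhancer or another regulatory element, and its nearest gene is a label of position and not shown to be its target.

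Accessibility differed between the arms at a small number of sites. The pooled test called 113 of 36803 peaks (0.307%) at an adjusted p under 0.05, of which 68 were higher (0.185%) and 45 lower (0.122%) after BLZ945. The higher peaks had log2 fold changes of 0.28 to 1.52 with a median of 0.65, and the lower peaks of -0.44 to -1.28 with a median of -0.81. A 2-fold difference (log2 above 1 in size) was passed by 11 higher and 8 lower peaks. The called higher peaks had a median level of 26.8 CPM (a peak's count relative to all autosomal peak counts of the library, scaled by TMM factors) and the lower ones of 13 CPM, beside a median of 18 CPM over all tested peaks. The clearest rises lay in introns of Cd36, Atp10a and Xylt1, and the clearest falls in introns of Rcan1 and Npl.

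The counts rested on libraries of 927840 to 2772688 rounded counts in peaks, of which 53.2% (PL 3_4) to 60.1% (PBP 1_2) lay in promoter peaks. PL 3_4 stood apart from PL 1_2, with a chi-square per degree of freedom between the pair of 1.84, beside 0.978 to 1.15 for the other pairs of replicates. The LBL pair differed by less than the sampling noise if each count is an independent event (0.978), and with these pools averaged and counted as 1 sample the test called 44 peaks. The sorter was an XDP for PBL, LBL and LL and an Astrios for PBP, PP and PL. Each group except PL came from a single isolation day. The PBP cells were isolated together with PL 1_2, and the PP cells together with PL 3_4. In the PBS-only and in the repeated-LPS state the arms therefore differed in day, and in the first-LPS state they differed in day and in sorter, so that these cannot be told apart from BLZ945 within a state. A fit with sorter as a term draws its BLZ945 value from the PBS-only and repeated-LPS states alone.

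To show the sequence at which accessibility was measured, RefSeq promoter windows (GRCm38.p6, 250 bases before to 50 after the start site) were taken for the called promoter peaks. Of 35 called promoter peaks 28 overlapped such a window of their nearest gene by 150 bp or more. The windows printed here are those of Atp10a, a phospholipid flippase (chr7:58657952-58658251, plus strand), Alcam, an adhesion molecule of the immunoglobulin family (chr16:52453032-52453331, minus strand), and Pcgf5, a subunit of a Polycomb repressive complex (chr19:36409498-36409797, plus strand). The pooled test called these higher after BLZ945. The window of 4931408C20Rik (chr1:26687411-26687710, minus strand), which the pooled test called lower, is printed as well. Capitals mark matches to any of 10 motifs searched on both strands, here the GC box GGGCGG and the box named for its letters CCAAT. In 4931408C20Rik they mark the ETS core, which reads GGAAGT on the strand shown. In Atp10a the first 2 motifs overlap at 1 place.
Atp10a: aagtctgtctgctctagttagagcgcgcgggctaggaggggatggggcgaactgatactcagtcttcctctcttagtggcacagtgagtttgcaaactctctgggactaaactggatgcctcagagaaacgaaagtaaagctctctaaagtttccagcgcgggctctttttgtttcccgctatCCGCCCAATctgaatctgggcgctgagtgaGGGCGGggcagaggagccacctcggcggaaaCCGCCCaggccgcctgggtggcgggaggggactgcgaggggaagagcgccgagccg
Alcam: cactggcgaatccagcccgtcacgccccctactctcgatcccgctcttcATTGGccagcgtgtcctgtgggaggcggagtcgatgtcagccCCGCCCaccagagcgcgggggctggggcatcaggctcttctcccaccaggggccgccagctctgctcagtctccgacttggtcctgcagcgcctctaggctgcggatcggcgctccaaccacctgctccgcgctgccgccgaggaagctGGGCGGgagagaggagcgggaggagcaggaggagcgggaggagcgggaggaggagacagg
Pcgf5: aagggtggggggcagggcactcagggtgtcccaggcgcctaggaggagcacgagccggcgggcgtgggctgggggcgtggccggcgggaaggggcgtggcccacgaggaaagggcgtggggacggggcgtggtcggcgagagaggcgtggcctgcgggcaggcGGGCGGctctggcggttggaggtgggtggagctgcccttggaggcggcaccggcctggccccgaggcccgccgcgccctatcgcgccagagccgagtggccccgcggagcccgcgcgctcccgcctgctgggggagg
4931408C20Rik: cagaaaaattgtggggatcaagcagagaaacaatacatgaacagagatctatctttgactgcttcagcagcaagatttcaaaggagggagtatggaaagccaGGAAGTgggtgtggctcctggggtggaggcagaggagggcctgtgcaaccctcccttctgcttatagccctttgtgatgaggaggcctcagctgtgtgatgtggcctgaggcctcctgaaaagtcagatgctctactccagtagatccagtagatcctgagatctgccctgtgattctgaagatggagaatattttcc
The GC box was present in 23 of 26 windows of higher promoter peaks (88.5%), beside 68.6% of all 10555 RefSeq windows that overlapped an autosomal peak of the set and 35.6% of all 32817 windows. The CCAAT box was in 42.3% of the higher windows, against 39.3% of windows in peaks. The ETS core was in 7.69% of the higher windows, against 31.4% of windows in peaks. The AP-1 motif TGANTCA, the E-box CACGTG and the NF-kB motif GGGANNTCC were each in 7.69% of the higher windows, against 4.3% (AP-1), 11.2% (E-box) and 5.88% (NF-kB) of windows in peaks. The TATA box TATAAA was in 11.5% of the higher windows, against 5.69% of windows in peaks, and the CRE motif TGACGTCA in 3.85%, against 3.87%. The sterol element TCACNCCAC and the interferon motif GAAANNGAA were in 0 of the 26 windows, beside 1.04% and 6.93% of windows in peaks. These shares describe letters in windows and were not tested. Of the 31 higher promoter peaks from which the 26 windows come, 19 lay on chromosomes 11 and 19, where peaks as a whole were shifted upward. The windows in peaks come from all autosomes, so these shares are not compared within the same chromosomes.

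Cd36 encodes a scavenger receptor that takes up fatty acids and oxidised lipoproteins. Its intronic peak (chr5:17854438-17854984) held 32.3 and 29.9 CPM in PBP against 12.8 and 7.08 CPM in PP, 51.4, 59.7 and 51.5 CPM in PBL against 21.7 and 36.9 CPM in PL, and 49.5 and 47 CPM in LBL against 16.2 and 18 CPM in LL. Every BLZ945 pool lay above every vehicle pool of its own state, and the PBP pools, which had no LPS, lay below 1 of the PL pools. The pooled difference was 2.3-fold (log2 1.20 ± 0.134 SE, adjusted p = 9e-11), and this was the peak with the smallest p of all. A second intronic peak (chr5:17857325-17857600) held 12.4 and 11.5 CPM in PBP against 10.6 and 10.1 CPM in PP, 22.8, 20.7 and 20.9 CPM in PBL against 10.2 and 10.8 CPM in PL, and 27 and 23.7 CPM in LBL against 8.12 and 8.18 CPM in LL. There the arms were separated most widely after LPS (log2 1.01 in the first-LPS and 1.62 in the repeated-LPS state) and by 0.21 without it, with a pooled value of 1.10 ± 0.181 (adjusted p = 1e-04). Both Cd36 peaks passed the test whichever library was left out.

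Atp10a encodes a flippase that moves phospholipids between the leaflets of the plasma membrane. Its intronic peak (chr7:58686539-58687170) held 39.7 and 27.6 CPM in PBP against 19.2 and 18.2 CPM in PP, 50.7, 48.4 and 45.1 CPM in PBL against 27.7 and 22.8 CPM in PL, and 44.8 and 48 CPM in LBL against 30.4 and 22.1 CPM in LL. The arms did not overlap in any state, and the 3 state values were 0.87, 0.92 and 0.84 on the log2 scale, with a pooled value of 0.88 ± 0.126 (adjusted p = 2.24e-06). At the promoter peak of the gene (chr7:58657915-58658605), whose window is printed above, the values were 22.3 and 10.7 CPM in PBP against 19.2 and 10.1 CPM in PP, 25, 30.1 and 26.9 CPM in PBL against 12.6 and 16.3 CPM in PL, and 26.4 and 26.8 CPM in LBL against 14.2 and 12.3 CPM in LL. The promoter was called in the pooled test (0.82 ± 0.162, adjusted p = 0.00331), although the PBP and PP pools overlapped. Its call held whichever library was left out. It was not called by DESeq2, limma-trend or with sorter as a term (adjusted p = 0.118, 0.0778 and 0.139).

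Xylt1 encodes the xylosyltransferase that starts glycosaminoglycan chains on proteoglycans, and it had 4 called peaks, all intronic and all higher after BLZ945. The strongest (chr7:117470111-117471015) held 28.5 and 29.9 CPM in PBP against 23.4 and 21.2 CPM in PP, 59.9, 68.7 and 70.9 CPM in PBL against 37.3 and 44.4 CPM in PL, and 62 and 74.3 CPM in LBL against 39.6 and 45 CPM in LL. The arms did not overlap in any state, and the peak stood higher in the LPS groups of either arm than in the PBS groups (pooled log2 0.66 ± 0.108, adjusted p = 0.000106). The other called Xylt1 peaks began at 117429005, 117481359 and 117508360 and had pooled values of 1.04 ± 0.232, 0.65 ± 0.166 and 1.18 ± 0.302 (adjusted p = 0.0156, 0.0461 and 0.0479). Of these, the first kept its call without 8 of the 13 libraries in turn, the second without 4 and the last without 2.

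**Figure D1:**
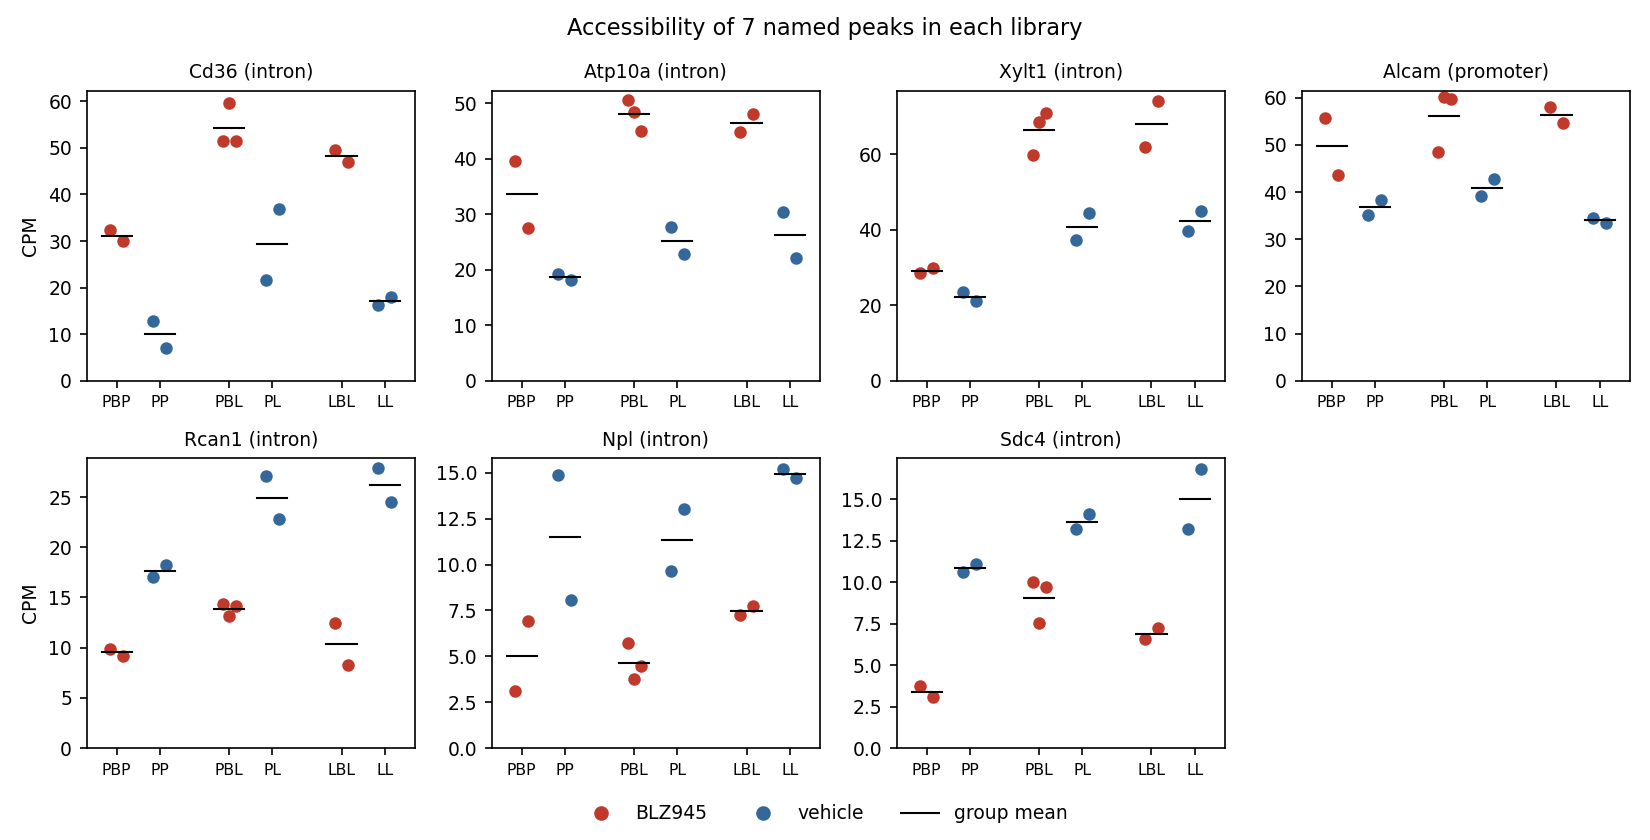
CPM of 7 named peaks in each library (y axis) for the groups PBP, PP, PBL, PL, LBL and LL (x axis), with a point per pool and a line at the group mean. At Cd36 the BLZ945 pools sit between 29.9 and 59.7 CPM and the vehicle pools between 7.08 and 36.9 CPM, and at Rcan1 the order is turned round, with 8.26 to 14.3 CPM after BLZ945 and 17 to 27.9 CPM after vehicle.

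Alcam encodes an adhesion molecule that binds CD6 and that leukocytes use at vessel walls. Its promoter peak (chr16:52452851-52453638) held 55.8 and 43.7 CPM in PBP against 35.1 and 38.4 CPM in PP, 48.5, 60.2 and 59.7 CPM in PBL against 39.1 and 42.8 CPM in PL, and 58 and 54.7 CPM in LBL against 34.5 and 33.5 CPM in LL. The vehicle pools of all states fell within a narrow range and every BLZ945 pool lay above it (pooled log2 0.56 ± 0.109, adjusted p = 0.00265). A distal Alcam peak (chr16:52470232-52470778) was called as well (0.75 ± 0.189, adjusted p = 0.0461), but its state values went both ways, at -0.69 without LPS, 1.09 after a first LPS dose and 0.74 after repeated LPS. It was the 1 called peak of 113 whose state means did not all lie in the pooled direction.

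Among the other named rises, Pard3 (a scaffold of cell polarity, intron) stood at 0.63 ± 0.122 and Fbn2 (the matrix protein fibrillin-2, intron) at 0.94 ± 0.183, each with adjusted p = 0.00256. A peak annotated as UTR at Zfp503, a zinc finger repressor, was at 0.54 ± 0.103 (adjusted p = 0.00247; 0.353 with sorter as a term). A distal peak, whose nearest start site is that of the chemokine receptor gene Ccr1 at 31719 bp, was at 0.77 ± 0.154 (adjusted p = 0.00398), and its state values were 0.20 in PBP over PP, 0.83 in PBL over PL and 0.88 in LBL over LL. Ccr1 was not called by DESeq2 or with sorter as a term (adjusted p = 0.123 and 0.14). An intronic peak of Gm12610, a predicted gene, had the largest called rise, 2.87-fold (1.52 ± 0.285, adjusted p = 0.00175), at 3.72 to 11.4 CPM in BLZ945 pools against 2.02 to 4.34 CPM in vehicle pools.

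The last 5 named rises lay on chromosomes 19 and 11. They were the promoters of Pcgf5 (0.53 ± 0.1, adjusted p = 0.00243), Cep55, a protein of the last step of cell division (0.40 ± 0.0823, adjusted p = 0.00544), and Smarca2, the ATPase of a SWI/SNF remodelling complex (0.48 ± 0.0983, adjusted p = 0.00547), a peak at 53401 bp from Ch25h, which makes 25-hydroxycholesterol (chr19:34420383-34421763, 0.73 ± 0.141, adjusted p = 0.00256), and a peak at chr11:64600472-64600846 (1.10 ± 0.225, adjusted p = 0.00547). On both chromosomes peaks as a whole were shifted upward, as given further on, and when each library was scaled within each chromosome, a choice made after these calls were seen, the Cep55 and Smarca2 promoters were no longer called (adjusted p = 0.128 and 0.0953). Pcgf5, the Ch25h neighbour and the chromosome 11 peak were still called, at 0.40, 0.59 and 1.04 (adjusted p = 0.0384, 0.035 and 0.0124). With sorter as a term none of the 5 was called. The adjusted p was then 0.225 for Pcgf5, 0.258 for Cep55, 0.0575 for Smarca2, 0.074 for the Ch25h neighbour and 0.133 for the chromosome 11 peak. DESeq2 did not call Cep55, Smarca2 or the chromosome 11 peak (adjusted p = 0.102, 0.0713 and 0.128).

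Rcan1 encodes an inhibitor of calcineurin, the phosphatase that activates NFAT, and 2 of its intronic peaks were less open after BLZ945. The stronger (chr16:92443610-92444014) held 9.92 and 9.2 CPM in PBP against 17 and 18.2 CPM in PP, 14.3, 13.2 and 14.2 CPM in PBL against 27.1 and 22.8 CPM in PL, and 12.5 and 8.26 CPM in LBL against 27.9 and 24.5 CPM in LL. All 7 BLZ945 pools lay below all 6 vehicle pools (2.02-fold lower, log2 -1.01 ± 0.162, adjusted p = 5.93e-05). The other (chr16:92419089-92419371) stood at -0.94 ± 0.168 (adjusted p = 0.000826), with 8.68 and 6.13 CPM in PBP against 17 and 10.1 CPM in PP, 8.56, 15.5 and 12.7 CPM in PBL against 21.7 and 28.2 CPM in PL, and 11.9 and 12.4 CPM in LBL against 23.3 and 22.9 CPM in LL. None of the Rcan1 peaks annotated as promoter was called. They began at 92399869, 92457739 and 92465930 and stood at -0.02 ± 0.0991, 0.18 ± 0.273 and 0.18 ± 0.0828 (adjusted p = 0.97, 0.881 and 0.431).

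Npl encodes the lyase that breaks down sialic acid. Its intronic peak (chr1:153542839-153543338) held 3.1 and 6.9 CPM in PBP against 14.9 and 8.09 CPM in PP, 5.71, 3.76 and 4.48 CPM in PBL against 9.63 and 13 CPM in PL, and 7.25 and 7.74 CPM in LBL against 15.2 and 14.7 CPM in LL. The arms did not overlap in any state (2.24-fold lower, log2 -1.17 ± 0.218, adjusted p = 0.00175), but Npl was not called by DESeq2 or with sorter as a term (adjusted p = 0.0573 and 0.0781). Sdc4 encodes the heparan sulphate proteoglycan syndecan-4. An intronic peak there (chr2:164441128-164441515) held 3.72 and 3.07 CPM in PBP against 10.6 and 11.1 CPM in PP, 9.99, 7.52 and 9.7 CPM in PBL against 13.2 and 14.1 CPM in PL, and 6.59 and 7.23 CPM in LBL against 13.2 and 16.8 CPM in LL. Again no state overlapped (-0.94 ± 0.203, adjusted p = 0.00903), and Sdc4 was not called by DESeq2 (adjusted p = 0.182).

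Other named falls with no overlap in any state were intronic peaks of Slc4a5, a bicarbonate transporter (-0.99 ± 0.207, adjusted p = 0.00651), and Eepd1 (-0.84 ± 0.183, adjusted p = 0.0111), an intronic peak whose nearest start site belongs to Spry4, an inhibitor of receptor tyrosine kinase signalling (-0.81 ± 0.171, adjusted p = 0.00697), and a peak within Ap4s1 whose nearest start site is that of the phosphatase scaffold gene Strn3 (-0.71 ± 0.153, adjusted p = 0.00853). Intergenic peaks at chr13:84347902-84348532 and chr18:74880013-74880359 were at -0.68 ± 0.142 and -1.07 ± 0.228 (adjusted p = 0.00627 and 0.00793). The remaining named falls overlapped in at least 1 state. They were a peak nearest to Rgs13, a regulator of G protein signalling (-1.16 ± 0.246, adjusted p = 0.00701), an intronic peak of Slc44a5, of the choline transporter-like family (-0.82 ± 0.183, adjusted p = 0.0156), and 3 peaks on chromosome 13 beginning at 28609194 (in an intron of 2610307P16Rik), 5591775 and 83074169, at -1.28, -0.92 and -0.53 (adjusted p = 0.00627, 0.0149 and 0.0204).

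The promoter of 4931408C20Rik differed from the rest in how its level varied between states. It held 69.5 and 80.5 CPM in PBP against 158 and 142 CPM in PP, 54.2, 48.9 and 36.6 CPM in PBL against 73.4 and 51.5 CPM in PL, and 42.2 and 48.5 CPM in LBL against 52.8 and 42.6 CPM in LL. The arms were apart without LPS (log2 -1.0 ± 0.157, adjusted p = 5.67e-05 in that state alone). They overlapped in the first-LPS state (-0.46) and in the repeated-LPS state (-0.05). The test for a difference between the 3 state values did not call this peak (adjusted p = 0.169), and the pooled value was -0.54 ± 0.105 (adjusted p = 0.00398). The peak was called with sorter as a term, but not by DESeq2 or limma-trend.

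**Figure D2:**
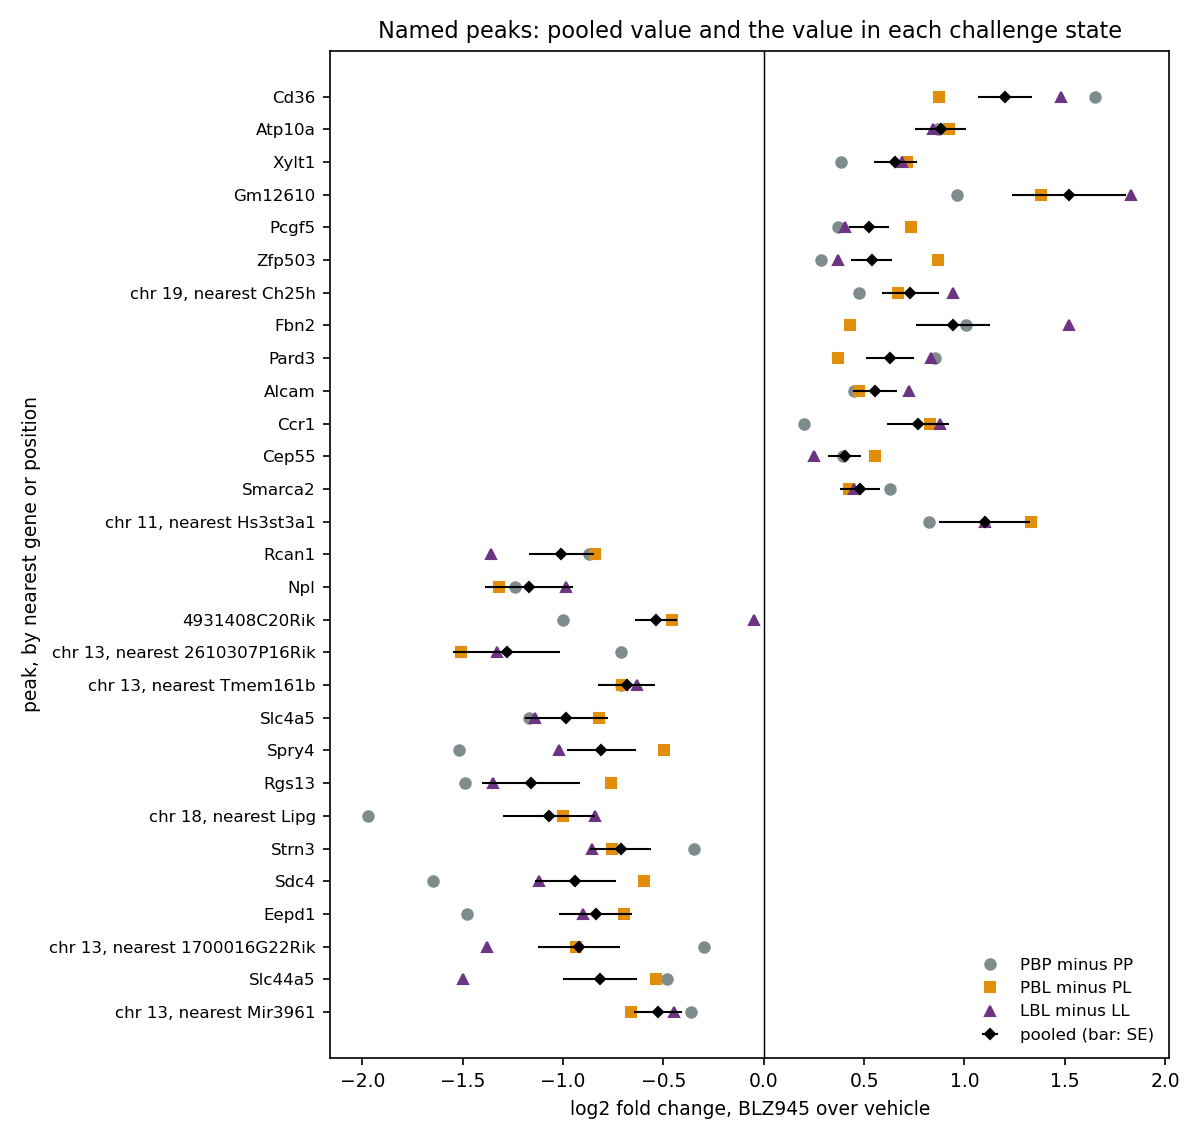
Log2 fold change of BLZ945 over vehicle (x axis) for 29 named peaks (y axis), as the pooled value with its SE and as the separate values of PBP minus PP, PBL minus PL and LBL minus LL. For all 29 peaks the 3 state values lie on the same side of 0, as the choice of named peaks required, from -1.97 to 1.83.

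Each challenge state on its own called few peaks. PBP against PP called 34 (0.0924%), PBL against PL 34 (0.0924%) and LBL against LL 18 (0.0489%). Leaving out single libraries, whose spread all 6 groups share in the model, moved these counts between 1 (without PBP 3_4) and 111 (without PL 3_4) for PBP against PP, between 2 (without PBL 4_5) and 1006 (without PL 1_2) for PBL against PL, and between 1 (without LL 1_2) and 69 (without PL 3_4) for LBL against LL. The Cd36 peak at 17854438 was called in each of the 3, at 1.65, 0.87 and 1.48 (adjusted p = 0.0107, 0.0199 and 4.57e-06). Of the other named peaks, 4931408C20Rik was called without LPS, Atp10a, Xylt1, Pcgf5, Zfp503 and Cep55 after a first LPS dose, and Fbn2, Rcan1 and Slc44a5 after repeated LPS. A call in 1 state and not in another does not show that the effects differ, and the direct test of a difference between the 3 states called 0 peaks of 36803 (0%). At an unadjusted p under 0.05 that test had 3625 peaks, DESeq2 also called 0, and over gene loci 0 were called with 1503 at an unadjusted p under 0.05. Without PL 1_2 it called 567 peaks.

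The pooled calls had medians of the same sign in all 3 states. Over the 68 higher peaks the median log2 fold change was 0.48 in PBP over PP, 0.65 in PBL over PL and 0.64 in LBL over LL, and over the 45 lower peaks -0.75, -0.83 and -0.80. In 112 of the 113 all 3 state means lay in the pooled direction, which held for 26.6% of all tested peaks, and in 68 (43 higher and 25 lower) the arms did not overlap in any state, beside 1.42% of all tested peaks. The same libraries made the pooled calls, so these medians and counts describe the peaks and do not test them. The calls did not rest evenly on the states. Without the PBS-only state 61 of the 113 were still called, without the first-LPS state 41 and without the repeated-LPS state 3.

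A reading that shares no library with the call was made by calling peaks in 2 states and taking their values from the third. In the first 2 readings the call and the left-out state do share isolation days, as PBP was isolated with PL 1_2 and PP with PL 3_4. The part of day in these shares was not tested. The pair of LPS states called 106 peaks, of which 91 could be read in PBP against PP, and 65 of these (71.4%) had the same sign there, beside 49.5% of all peaks. The PBS-only and repeated-LPS states called 103, and 75 of 102 (73.5%) had the same sign in PBL against PL, beside 51.4% of all peaks. In the called direction, the median log2 fold change in the left-out state was 0.19 and 0.16, against 0.73 and 0.74 in the pairs that chose the peaks. An unadjusted p under 0.05 with the same sign was reached by 17 (18.7%) and 22 (21.6%), beside 5.61% and 4.77% of all peaks. The PBS-only and first-LPS states together called only 3 peaks, all with the same sign in LBL against LL. Without PL 3_4 that pair called 64, and 46 of 62 (74.2%) had the same sign, beside 53.5% of all peaks. Leaving out peaks on chromosomes 11 and 19, the shares in the first 2 readings were 74.6% (50 of 67) and 74.1% (60 of 81).

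**Figure D3:**
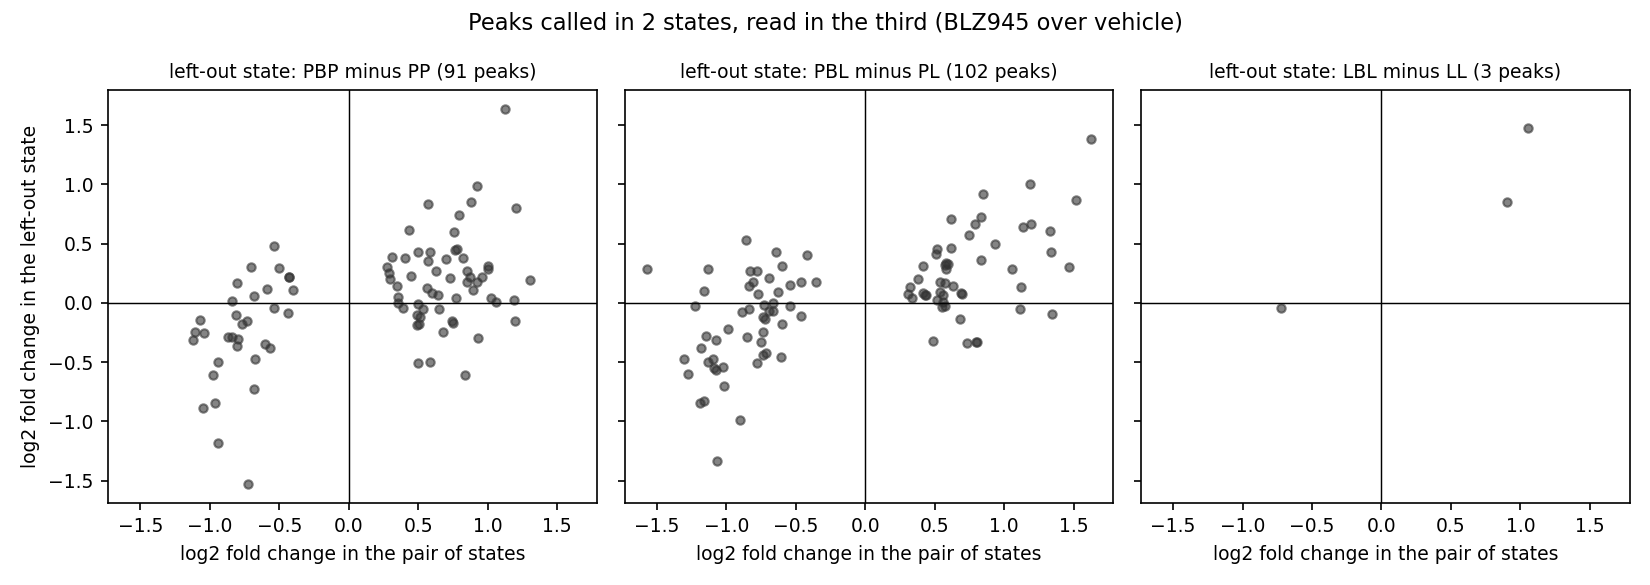
Log2 fold change of BLZ945 over vehicle in the pair of states that called each peak (x axis) and in the left-out state (y axis), with a point per peak and a panel per left-out state. In the first panel 65 of 91 points and in the second 75 of 102 lie in the quadrants of equal sign, and the third panel holds 3 points.

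Promoters made up 31 of the 68 higher peaks (45.6%, 95% Wilson interval 34.3 to 57.3) and 4 of the 45 lower peaks (8.89%, 3.51 to 20.7), beside 36.5% of all tested peaks. Introns held 29.4% of the higher and 51.1% of the lower peaks, beside 31.5% of all, and intergenic sites 16.2% and 33.3%, beside 24.4%. The higher promoters were unevenly placed: 19 of 31 lay on chromosomes 11 and 19, and on the other autosomes 12 of 40 higher peaks (30%, 18.1 to 45.4) were promoters. Besides those already named they included Gnaq, a G protein subunit, Fas, a death receptor, and Lipa, the lysosomal acid lipase, on chromosome 19, and Xpo1, a nuclear export receptor, G3bp1, of stress granules, and Mdh1, a malate dehydrogenase, on chromosome 11. With each library scaled within each chromosome, the Gnaq, Fas and Lipa promoters were not called. The 2 higher calls on chromosome 19 were then the Pcgf5 promoter and the Ch25h neighbour. On other autosomes the higher promoters included Ccnb1, the cyclin of mitotic entry (0.51, adjusted p = 0.0315), and Chst15, a chondroitin sulphotransferase (0.52, adjusted p = 0.0473). In the pooled fit promoter peaks as a class lay slightly higher after BLZ945, with a median of 0.04 over 13439 peaks against -0.03 over the 23364 others. That contrast did not hold in every state. In PBP over PP the order was reversed (-0.01 for promoters and 0.006 for the others), and in LBL over LL the medians were 0.01 and -0.007. The contrast was widest in PBL over PL (0.09 for promoters and -0.07 for the others), the state with PL 3_4, whose promoter share was the lowest. The part of PL 3_4 in this result was not tested.

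Chromosome 19 held 16 higher and 0 lower calls among 1141 tested peaks (1.4%), and chromosome 11 held 12 and 1 among 2559. Together they carried 28 of the 68 higher peaks (41.2%) on 10.1% of the peaks tested. The median pooled log2 fold change of all tested peaks was 0.12 on chromosome 19 and 0.07 on chromosome 11, while the other 17 autosomes lay between -0.03 and 0.03. By state it was -0.01, 0.20 and 0.14 on chromosome 19 and -0.08, 0.17 and 0.06 on chromosome 11 (PBP over PP, PBL over PL and LBL over LL). PL 3_4 was the lowest library on both, with medians of -0.18 and -0.23 relative to the mean of all libraries. With each library scaled within each chromosome, 84 peaks were called in all, 78 of them among the 113, with 2 higher on chromosome 19 and 3 higher and 4 lower on chromosome 11. The Cd36, Atp10a, Xylt1, Rcan1 and Npl peaks lie on other chromosomes and were called under that scaling too.

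**Figure D4:**
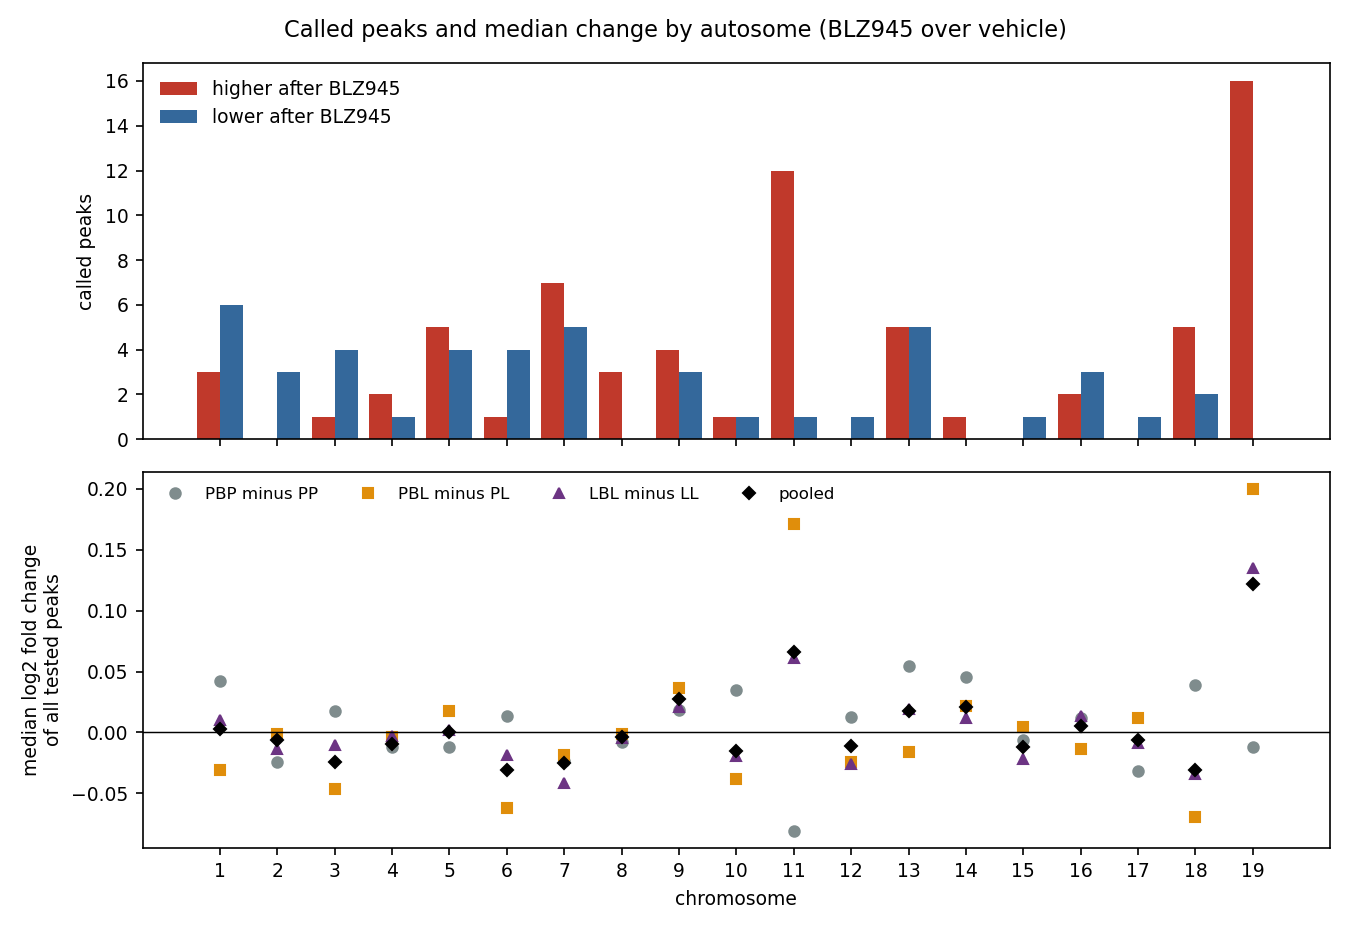
Number of called peaks (upper panel) and median log2 fold change of BLZ945 over vehicle over all tested peaks (lower panel) for each autosome (x axis), with the pooled value and those of the 3 states. Chromosomes 11 and 19 stand out with 12 and 16 higher calls and with pooled medians of 0.07 and 0.12.

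To ask whether groups of genes moved, counts were summed over all autosomal peaks within 50 kb whose nearest start site belonged to a gene. The CPM of a locus is its summed count relative to all locus counts of the library, scaled by TMM factors, so it differs slightly from the CPM of peaks. Of 13370 loci tested 97 were called (0.726%), 58 higher (0.434%) and 39 lower (0.292%), and 31 of the 58 higher loci lay on chromosomes 11 and 19. The median log2 fold change over all loci was -0.01, and 6456 of 13370 were positive. Among 22 gene lists 14 held no called locus, 7 held 1 and the lipid list held 2. With 0.726% of all loci called, lists of this size hold few calls or none, so these counts do not show that a list was unmoved. The share at an unadjusted p under 0.05 was 11.4% over all loci. Over the lists it ran from 0% (oligodendrocyte, astrocyte and neuron markers) to 28.6% (lymphocyte markers). Without a single library in turn the count of called loci ran from 30 (without LBL 1_2) to 211 (without PL 3_4).

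Homeostatic microglia genes are those by which resident microglia are told from other macrophages. Of 31 tested homeostatic microglia loci 0 were called, with a median of 0.02. An unadjusted p under 0.05 was reached by 6 of them (19.4%), beside 11.4% of all loci. P2ry12, the purinergic receptor that marks resting microglia, held 288 and 320 CPM in PBP against 246 and 236 CPM in PP, 268, 281 and 277 CPM in PBL against 245 and 337 CPM in PL, and 295 and 258 CPM in LBL against 310 and 324 CPM in LL. The arms overlapped in the first-LPS state and lay in opposite orders in the others, with a pooled value of -0.01 ± 0.0685 (adjusted p = 0.967). Tmem119 (0.18 ± 0.0876), Cx3cr1 (0.11 ± 0.0582), Mertk (-0.05 ± 0.0629) and Siglech (-0.22 ± 0.0845) were not called (adjusted p = 0.437, 0.486, 0.832 and 0.275). Of 18 transcription factors of microglial identity Bhlhe40, a regulator of macrophage activation, was higher (0.45 ± 0.10, adjusted p = 0.0174), and Sall1 was at 0.15 ± 0.0737 (adjusted p = 0.419). Bhlhe40 kept its call in 7 of 13 fits with 1 library left out, and was not called by DESeq2, limma-trend or with sorter as a term (adjusted p = 0.105, 0.0675 and 0.246). Of 21 loci of the CSF1 receptor and survival pathway 0 were called, with Csf1r itself at 0.04 ± 0.0578 (adjusted p = 0.837).

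Cd36 was the 1 called locus of 27 tested markers of bone-marrow-derived and border macrophages and 1 of 2 called of 30 loci of lipid uptake and cholesterol handling. Summed over its 2 peaks it stood at 1.15 ± 0.114 (adjusted p = 1.07e-09), the largest rise of any locus tested. The macrophage list as a whole had a median of 0.02, with a summed level of 1500 to 1880 CPM in BLZ945 pools and 1440 to 2000 CPM in vehicle pools. Its defining members Ms4a7 (0.02 ± 0.21), Clec12a (-0.12 ± 0.184) and Mrc1, the mannose receptor (0.11 ± 0.0906), were not called (adjusted p = 0.988, 0.875 and 0.701). In a sorted bulk sample, more cells of a type and more open chromatin per cell cannot be told apart. The second lipid locus was Lipa (0.35 ± 0.0743, adjusted p = 0.0113), with 145 and 148 CPM in PBP against 95 and 109 CPM in PP, 116, 132 and 126 CPM in PBL against 101 and 123 CPM in PL, and 142 and 145 CPM in LBL against 92.9 and 118 CPM in LL. It lies on chromosome 19 and was not called with each library scaled within chromosomes (adjusted p = 0.185). The median of the lipid list was 0.01, and Plin2, a coat protein of lipid droplets, was at -0.33 ± 0.0914 (adjusted p = 0.0735).

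No list of the inflammatory response held more than 1 called locus, beside 0.726% of all loci. Across these lists the share at an unadjusted p under 0.05 ran from 11.1% (disease-associated or primed microglia) to 21.2% (cytokines and NF-kB targets). Over all loci it was 11.4%. Of 33 inflammatory cytokine and NF-kB target loci Ccl5, a chemokine, was higher (0.30 ± 0.0745, adjusted p = 0.0388), and Tnf (-0.31 ± 0.10), Il1b (-0.20 ± 0.0633) and Nfkbia (0.06 ± 0.0574) were not called (adjusted p = 0.156, 0.152 and 0.762), with a list median of -0.01. Of 27 negative regulators of LPS signalling Pdcd1lg2, which encodes the checkpoint ligand PD-L2, was higher (0.49 ± 0.119, adjusted p = 0.0326). In the list of 27 loci of disease-associated or primed microglia Ch25h was higher (0.47 ± 0.0906, adjusted p = 0.00466). Of the 13 fits that each left out 1 library, Ccl5 was called in 4, Pdcd1lg2 in 6 and Ch25h in 13. With sorter as a term none of these was called (adjusted p = 0.189 for Ccl5, 0.0909 for Pdcd1lg2 and 0.0715 for Ch25h). Ccl5 lies on chromosome 11 and the other 2 on chromosome 19, and with each library scaled within chromosomes they were not called (adjusted p = 0.169, 0.147 and 0.0522). None of 32 interferon-stimulated loci (median 0.05), 29 immediate early and AP-1 loci (-0.06) and 20 loci of antigen presentation (0.01) was called, and the closest to the threshold were Isg20 (-0.36 ± 0.096, adjusted p = 0.0519) and Fosb (-0.24 ± 0.0651, adjusted p = 0.0607).

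Of 36 cell cycle loci Ccnb1 was higher, through its promoter peak alone (0.48 ± 0.118, adjusted p = 0.0353), with 41.5 and 41.9 CPM in PBP against 24.9 and 36.3 CPM in PP, 40.1, 44.6 and 47.1 CPM in PBL against 25.5 and 32.8 CPM in PL, and 35.8 and 46.9 CPM in LBL against 35.4 and 29.6 CPM in LL. The arms did not overlap in any state, and the list median was 0.00452. The Ccnb1 call held in 6 of 13 fits with 1 library left out, and it was lost with DESeq2, limma-trend and sorter as a term (adjusted p = 0.141, 0.0537 and 0.294). No locus was called among 20 glucocorticoid receptor and target loci (median -0.07, Fkbp5 at -0.02), 26 of glycolysis, HIF and mTOR (0.03) and 33 chromatin modifiers (-0.01).

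Markers of other cell types were measured at few loci. The 9 tested monocyte loci summed to 547 to 676 CPM in BLZ945 pools and 578 to 652 CPM in vehicle pools, and the 9 neutrophil loci to 279 to 322 CPM in BLZ945 pools and 270 to 327 CPM in vehicle pools. The 14 lymphocyte loci summed to 548 to 655 CPM in BLZ945 pools and 562 to 668 CPM in vehicle pools. For glia of another kind, 10 oligodendrocyte loci held 492 to 543 CPM in BLZ945 pools and 514 to 553 CPM in vehicle pools, and 3 astrocyte loci 288 to 381 CPM in BLZ945 pools and 303 to 377 CPM in vehicle pools. All these ranges overlapped between the arms. The 4 neuron loci held 70.3 to 106 CPM in BLZ945 pools and 86.2 to 131 CPM in vehicle pools, and the 12 endothelial and mural cell loci 409 to 528 CPM in BLZ945 pools and 406 to 591 CPM in vehicle pools. Cxcr2, a chemokine receptor of neutrophils, was the only called locus among them. It was lower after BLZ945 (-0.66 ± 0.158, adjusted p = 0.0323), with 13.1 to 14.9 CPM in BLZ945 pools and 15.3 to 29.6 CPM in vehicle pools, so the arms did not overlap. The Cxcr2 call held in 6 of 13 fits with 1 library left out, and it was lost with DESeq2, limma-trend and sorter as a term (adjusted p = 0.18, 0.0811 and 0.0661). The list medians ran from -0.27 (neurons) to -0.02 (lymphocytes).

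**Figure D5:**
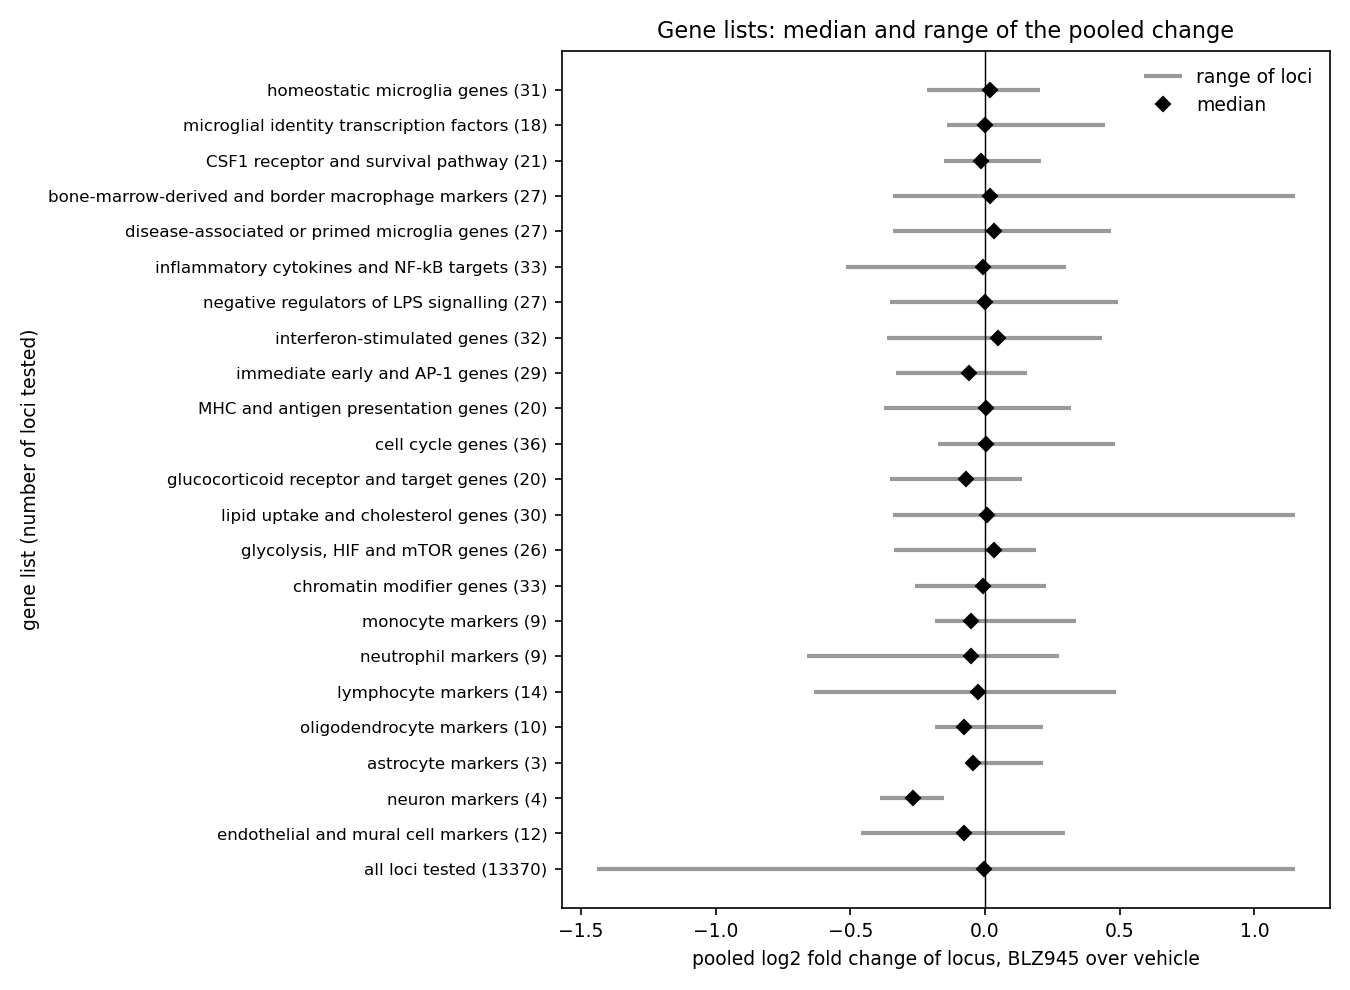
Median (diamond) and range (line) of the pooled log2 fold change of BLZ945 over vehicle (x axis) over the tested loci of each gene list and over all loci (y axis, number tested in brackets). The medians lie between -0.27 and 0.05, and the Cd36 locus at 1.15 sets the upper end of both lists that hold it.

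The set of calls depended on single libraries and on the model. With each library left out in turn the count of called peaks was 52 without LBL 1_2, 53 without LBL 3_4, 57 without PBL 4_5, 61 without LL 3_4, 63 without LL 1_2, 64 without PBP 1_2, 72 without PBL 3_4 and 175 without PL 3_4, and between 85 and 130 without the remaining libraries. DESeq2 called 12 peaks, all among the 113. Of the named peaks, 13 of 14 higher and 4 of 15 lower were still called whichever library was left out. With sorter as a term 7 of the 14 higher and 6 of the 15 lower were called, and DESeq2 called 8 higher and 1 lower of the 27 to which it gave an adjusted p. With sorter as a term 29 peaks were called, 22 of them among the 113. A fit without PBL and PL called 103, 41 of them among the 113. It kept the states whose arms shared an instrument (Astrios in the PBS-only state, XDP in the repeated-LPS state). The sorter term takes up the difference between PBL and PL. Both fits therefore draw the BLZ945 value from these states alone, as at the Cd36 peak (log2 1.53 and 1.52). With isolation day as a term 761 were called, of which 8 were among the 113, and 95 of the 113 kept their sign. In that model the day effect rests on the difference between PL 1_2 and PL 3_4, so day cannot be told apart there from whatever else sets PL 3_4 apart. PBL, LBL and LL each have a day of their own and do not enter its BLZ945 value. That value is PBP over PP less PL 1_2 over PL 3_4, and so does not estimate the effect pooled over the states.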

How the data were processed

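ATAC-seq was measured in 13 pooled libraries of sorted microglia. For 1 peak set the authors deposited estimated counts per library, in steps of 0.5 and without normalization, and the deposited peak annotation gives class, nearest gene and distance to its start site. The counting tool and any shift of read ends are not given in the sources used here. Tools named in the submitters' processing notes are MACS2 2.1.1, Bowtie2 2.2.6, HOMER 4.9.1, ChIPseeker 1.38, cutadapt 1.9.1, bedtools 2.26, deepTools 3.3.0, Picard 1.126 and SAMtools 1.7, and the builds are GRCm38 and mm10. Depth was 927840 to 2772688 rounded counts, and intervals cover counting error only.

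Rounded autosomal counts went into edgeR 4.0.16 under R 4.3.3 (TMM, filterByExpr at a minimum count of 10, robust quasi-likelihood F test, two-sided). The pooled model held arm and challenge state. State contrasts and the test of their difference used 6 group means over all libraries. P-values were Benjamini-Hochberg adjusted over all features tested. SE is the log2 fold change over the square root of F. The models were tested on simulated data, in which all peaks had the same spread and no day, sorter or outlying library was put in. That test therefore does not cover these features of the real libraries. DESeq2 1.42.0 and limma 3.58.1 served as alternatives.

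Named peaks are the 15 with the smallest p among the higher and among the lower calls, with no gene taken again and with all 3 group differences in the called direction; 1 of the higher ones is not reported here. Named loci are the 2 with the smallest p per list and direction, and a fixed set. Other peaks at those genes and called promoters were named after their values were seen. Comparison, lists and rules were chosen with earlier results of these data known. Gpr34 lies on the X chromosome and Apoe had no tested peak.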

Additional observations from a re-analysis of the deposited data

Results flagged for a closer look

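Peaks on the X and Y chromosomes were outside the pooled comparison. When they were added to the model, 10 of them were called, which flags a signal in data that the report does not use. Of 734 tested peaks on X, 2 were higher and 5 lower after BLZ945, and of 13 tested on Y 0 were higher and 3 lower. They included 4 peaks of Mid1, a ubiquitin ligase bound to microtubules, which were lower, at -0.44, -0.68, -0.70 and -0.64 on the log2 scale (adjusted p = 6.54e-06, 0.00216, 0.00836 and 0.048). A peak near Mir222 (0.88) and the promoter of Brwd3 (0.50) were higher (adjusted p = 0.0142 and 0.0216). The 3 called Y peaks lie 22911 to 36487 bp from the start site of G530011O06Rik. The annotation also gives that name to a called X promoter peak (-0.57), which lies among the Mid1 peaks. All 5 lower X peaks thus fall in 1 stretch of the X chromosome (169972672 to 170011197). Reads of copies shared by X and Y may be split between the 2 chromosomes.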

How the results depend on the processing

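Beside the 113 pooled peak calls, DESeq2 made 12 calls in all, limma-trend 45, cyclic loess 32, a sorter term 29, an isolation day term 761, leaving out the repeated-LPS state 3 and the averaged LBL pair 44. Leaving out each library gave 52 to 175. DESeq2 size factors (114), no filter (115), scaling within chromosomes (84) and leaving out chromosomes 11 and 19 (79), the last 2 chosen after the data were seen, stayed within 1.5 times. The 97 locus calls became 24 with DESeq2, 20 with a sorter term, 976 with a day term, 8 without the repeated-LPS state, 32 with the LBL pair averaged, 50 with scaling within chromosomes, 59 without chromosomes 11 and 19, 34 over peaks within 10 kb and 12 within 1 kb, and 30 to 211 without each library. DESeq2 called 0 peaks for PBP vs PP (34), 0 for PBL vs PL (34) and 1 for LBL vs LL (18). Leaving out each library gave 1 to 111, 2 to 1006 and 1 to 69 for these, and 0 to 567 for the difference between states. With a looser call in the pair of states (adjusted p under 0.2), 58.9% of 664 peaks had the same sign in PBP vs PP, and without PL 3_4 the shares were 79.5% (PBP vs PP), 72.5% (PBL vs PL) and 74.2% (LBL vs LL).

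With isolation day as a term the sign was reversed at the peaks of Pcgf5 (-0.0584), Rgs13 (0.0819), Slc44a5 (0.81) and chromosome 13 at 28609194 (1.17), 5591775 (0.21) and 83074169 (0.0721). It was also reversed at the loci Cxcr2 (0.0776), Ctsc (0.54), Mef2c (0.47) and P2ry12 (0.80). In that model the BLZ945 value is PBP over PP less PL 1_2 over PL 3_4, and PBL, LBL and LL do not enter it. No other alternative reversed a named peak or locus that either fit called.

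Replicate numbers are shared by the groups, but same-numbered pools deviated together by correlations of only 0.0058 (PBP and PP), 0.17 (PBL and PL) and -0.0007 (LBL and LL), so the numbers do not pair them. With the number as a replicate block, 75 peaks and 50 loci were called, 74 peaks for PBP vs PP, 35 for LBL vs LL and 53 for the difference between states. Depth limits the faintest peaks, such as that of Gm12610, at 2.02 to 4.34 CPM in vehicle pools.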
